A study of Mus musculus with 3 samples.

Results

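Chemokine receptors were compared across 3 sorted cell populations of the adult mouse spleen, with levels of RNA taken from 1 Affymetrix expression array per population. The genes were Ccr1, Ccr2, Ccr3, Ccr7, Cxcr3, Cxcr4, Ccrl2 and Cx3cr1, chosen by name, and every probe set that the platform annotation assigns to one of these symbols alone was used. This gave 13 of 45037 probe sets, for 8 of the 18193 genes with a value. All mice had the genotype Spic(igfp/+), in which green fluorescence reads out Spic (the gene of a transcription factor that red pulp macrophages need), so no population came from mice without that allele. Spic-negative monocytes were sorted as CD11b+ Ly6C+ cells without fluorescence, and Spic-positive monocytes as CD11b+ Ly6C+ cells with it; they are called Spic-negative and Spic-positive cells for short. Red pulp macrophages were sorted as high for the surface antigen encoded by Adgre1 and for the fluorescence. Both monocyte sorts followed a depletion of cells bearing CD4, CD8 or B220. The sources used here do not give the number of mice behind each sample or any pooling of animals.

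Chemokine receptors are membrane proteins with a bundle of membrane-spanning helices that couple to inhibitory G proteins and steer cells along gradients of small secreted proteins, the chemokines. In monocytes, CCR2 carries the cell out of the bone marrow and CX3CR1 supports patrolling and survival, while CCR7 is the receptor that leads dendritic cells and lymphocytes into lymphoid zones. Ccrl2 encodes an atypical receptor that presents ligand without the usual signal.

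Values are log2 expression made by the authors with RMA, and a difference of 1 is 2-fold. With no replicate arrays there is no error for any value and no test, so differences are given by size. A floor of log2 5.02 (the median over the probe sets that are not controls) marks levels near background, and the 12375 genes above it on at least 1 array served as the background. All 8 receptors lay above it. Where a gene had several probe sets, the one with the highest mean over the arrays stands for it, and all are shown. Levels of different genes are not compared, since probe sets bind with different strength.

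Spic followed the labels, at 5.66 in Spic-negative cells, 9.22 in Spic-positive cells and 12.23 in red pulp macrophages. Adgre1, used in the macrophage sort, was highest in macrophages, at 10.77, 10.67 and 12.50 in the same order. Itgam (CD11b) measured 8.68, 7.38 and 5.23, and thus differed by over 2-fold between the monocytes, although both were sorted as CD11b+. The Spic-positive array stood apart in its technical controls: all 18 hybridization controls were brighter there, with a median excess of 2.16 over the Spic-negative array, against 0.07 for macrophages and Spic-negative cells. For Gapdh, the 3′ control minus the 5′ control, a sign of RNA integrity, was 0.48, 2.25 and 1.61 in the order Spic-negative, Spic-positive and macrophage, and that of Actb 0.74, 0.57 and 1.13. The part of these differences in the results was not tested.

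Between the monocyte populations, Ccr7 was the receptor at least 2-fold higher with Spic and Ccr1 the receptor at least 2-fold lower, while 6 of the 8 differed by less than 2-fold. The background was 3.49% of the genes higher by 2-fold or more and 3.06% lower by as much. In red pulp macrophages the set split: against Spic-negative cells, 3 receptors (Ccr3, Cxcr3 and Ccr7) were at least 2-fold higher, where the share of all genes was 19.6%, and 4 (Ccr1, Ccr2, Cx3cr1 and Cxcr4) at least 2-fold lower, where it was 11.3%. Against Spic-positive cells, 2 were higher (22% of all genes) and 5 lower (11.6%), Ccr7 having joined the lower ones. Ccrl2 stayed within 2-fold on all 3 arrays. At 4-fold, Ccr7 alone was higher with Spic (0.663% of all genes) and 0 receptors were lower (0.0485%). In macrophages, 3 were higher by 4-fold than in Spic-negative cells (7.38%) and 3 lower (2.63%), and 2 were higher than in Spic-positive cells (7.22%) and 4 lower (2.04%). The macrophage comparisons share 1 array, as do those with Spic-positive cells, so they are not independent. The 2-fold shares of all genes given here are also the background for the counts of the other lists below. For counts of genes highest on an array, the background is another share. Of all genes above the floor, 28.6% were highest in Spic-negative cells, 25.9% in Spic-positive cells and 45.5% in macrophages. The median difference of the 8 was 0.30 between the monocytes, -0.70 for macrophages against Spic-negative and -1.69 against Spic-positive cells, where the medians of all genes were -0.06, 0.03 and 0.10.

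**Figure D1:**
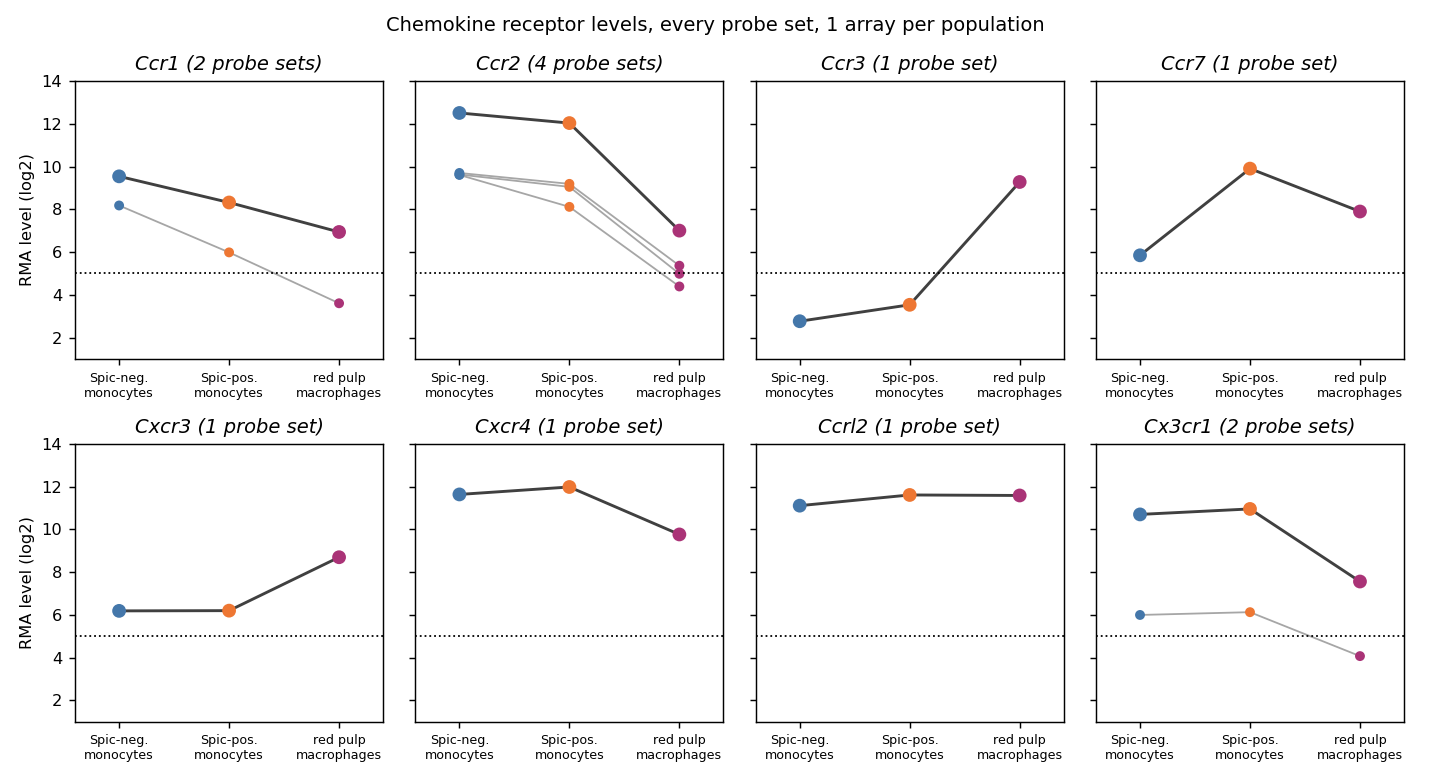
RMA levels (log2, vertical axis) of each receptor on the 3 arrays (horizontal axis), with 1 point per array and a line per probe set; large points mark the probe set with the highest mean, small points the others, and the dotted line the floor at 5.02. Ccr1, Ccr2, Cxcr4 and Cx3cr1 are lowest in macrophages, Ccr3 and Cxcr3 highest there, and Ccr7 is highest in Spic-positive cells at 9.90.

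Ccr2, the receptor for CCL2 on inflammatory monocytes, was the member furthest below the monocyte levels in macrophages. Its brightest probe set measured 12.51 in Spic-negative cells, 12.03 in Spic-positive cells and 7.005 in red pulp macrophages. Both monocyte arrays were high and the macrophage array stood far below them. The macrophage difference was -5.50 from Spic-negative cells (45.3-fold) and -5.03 from Spic-positive cells (32.6-fold), and 6 of the 12375 genes, Ccr2 among them, lay as low in the first of these. The other probe sets measured 9.70, 9.19 and 5.36, then 9.63, 9.05 and 4.99, then 9.61, 8.12 and 4.39 in the same order. All 4 put macrophages lowest, by 4.34 to 5.50 below Spic-negative cells. Between the monocyte arrays they disagreed in size: 3 probe sets gave -0.47, -0.51 and -0.58, each under 2-fold, and the dimmest gave -1.49 (2.82-fold). The sign was the same in all 4, but they read the same arrays and are not replicates. On the brightest, 2215 of 12375 genes (17.9%) lay as low as Ccr2 with Spic. In sorted populations, fewer cells that carry a transcript and less of it per cell cannot be told apart.

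Ccr1, which answers several inflammatory chemokines such as CCL3, CCL5 and CCL9, was graded over the arrays. Its brighter probe set measured 9.54 in Spic-negative cells, 8.32 in Spic-positive cells and 6.94 in macrophages. The dimmer probe set gave 8.18, 5.99 and 3.61. Both probe sets placed the Spic-positive cells between the other populations. The difference with Spic was -1.22 (2.33-fold) and -2.19 (4.57-fold), and 164 of 12375 genes (1.33%) lay as low as the first. For macrophages against Spic-negative cells it was -2.60 and -4.57, and against Spic-positive cells -1.38 and -2.38. The dimmer probe set was below the floor in macrophages, so its size there rests on background, and with that level raised to the floor the difference was -3.16 from Spic-negative cells and -0.97 from Spic-positive cells, the latter under 2-fold. Among the 8 receptors, Ccr1 was the only one with at least 2-fold steps in 1 direction from Spic-negative to Spic-positive cells and on to macrophages.

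Cx3cr1, the fractalkine receptor that marks monocytes and many tissue macrophages, was at a similar level in both monocyte populations and low in macrophages. It measured 10.69 in Spic-negative cells, 10.95 in Spic-positive cells and 7.56 in macrophages. The monocyte arrays lay within 2-fold of each other, at a difference of 0.26, and macrophages were lower by 8.80-fold and 10.5-fold. The second probe set, at 5.99, 6.12 and 4.07, had the same order but was below the floor in macrophages. With that level raised to the floor, its macrophage difference was -0.97 from Spic-negative cells, under 2-fold, and -1.10 from Spic-positive cells. Cxcr4, the receptor for CXCL12 that holds cells in the bone marrow, measured 11.63, 11.98 and 9.76. The difference between the monocytes was 0.35, and macrophages differed by -1.87 (3.66-fold) and -2.22 (4.66-fold). Unlike Ccr2 and Ccr1, both Cxcr4 and Cx3cr1 had the Spic-positive cells as the highest array, though by less than 2-fold.

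Classical monocyte markers were lower on the same arrays, and nonclassical ones were not as a group. Of 9 classical monocyte markers other than Ccr2 (with Vcan, F13a1 and S100a4 among them), all were highest in Spic-negative cells, 2 were at least 2-fold lower in Spic-positive cells and 7 in macrophages, and their summed linear level was 60575, 42347 and 19156 over the arrays. The medians of these differences were -0.50 and -1.89, and the count of 2 was 1 with the mean of each gene's probe sets. Of 10 nonclassical monocyte markers other than Cx3cr1, 1 was at least 2-fold higher in Spic-positive cells and none lower, the integrin gene Itgax (7.27, 10.41 and 8.50), with a median of 0.14. In macrophages against Spic-negative cells, 4 of the 10 were higher, among them the Fc receptor gene Fcgr4 (9.04, 8.79 and 11.59), and 3 lower, among them Nr4a1 (13.29, 13.04 and 11.22), with a median of 0.29. Their summed linear level was 19994, 20241 and 16136. The part of such markers in the receptor values was not tested.

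Ccr3 went the other way from its genomic neighbours. In the RefSeq gene order of GRCm38.p6, Ccr1, Ccr3 and Ccr2 lie in a cluster of receptor genes on chromosome 9, and Ccr3 and Ccr2 are adjacent protein-coding genes. To show where members that differ in direction start, the 250 bases before the RefSeq start are given for these 3 genes and for Cxcr3, the other receptor with its highest level in macrophages. The windows are chr9:123968693-123968942 (minus strand), chr9:124021721-124021970 (plus strand), chr9:124101933-124102182 (plus strand) and chrX:101734148-101734397 (minus strand), read 5′ to 3′ toward the gene. Capitals mark GAGGAA, the core of the box bound by SPI1 (PU.1) and its relatives, SPIC among them, or its reverse complement.
Ccr1: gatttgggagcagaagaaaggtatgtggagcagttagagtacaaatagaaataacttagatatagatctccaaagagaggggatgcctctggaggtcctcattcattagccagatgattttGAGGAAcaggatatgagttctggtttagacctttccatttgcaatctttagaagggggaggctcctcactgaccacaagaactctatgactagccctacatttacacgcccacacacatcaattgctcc
Ccr3: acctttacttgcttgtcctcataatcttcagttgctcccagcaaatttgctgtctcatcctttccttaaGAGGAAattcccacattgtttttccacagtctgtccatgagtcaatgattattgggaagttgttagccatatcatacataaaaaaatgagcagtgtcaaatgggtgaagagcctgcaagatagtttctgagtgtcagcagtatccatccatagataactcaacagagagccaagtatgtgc
Ccr2: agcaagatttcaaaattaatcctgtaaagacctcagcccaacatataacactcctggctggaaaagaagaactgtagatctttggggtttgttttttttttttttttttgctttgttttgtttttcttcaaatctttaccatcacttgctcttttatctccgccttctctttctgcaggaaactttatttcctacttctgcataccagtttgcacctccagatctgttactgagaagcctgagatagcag
Cxcr3: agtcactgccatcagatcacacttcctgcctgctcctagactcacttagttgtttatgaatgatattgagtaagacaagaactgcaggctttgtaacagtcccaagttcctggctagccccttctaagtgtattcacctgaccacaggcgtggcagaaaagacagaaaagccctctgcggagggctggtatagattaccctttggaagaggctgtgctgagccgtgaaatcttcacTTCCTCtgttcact
Of the 7 receptors with a promoter entry, Ccr1, Ccr3 and Cxcr3 held GAGGAA on either strand, and Ccr2, Cxcr4, Ccrl2 and Cx3cr1 did not. Over all 32851 windows of this length, 23.3% held it. That is a share of windows and not of genes, since a gene can have several, and the 7 receptors had 9 windows. The longer GAGGAAGT, which contains GAGGAA, was found for Cxcr3, with the match starting on the strand opposite to the gene, and in 2.44% of all windows. The letters were thus present before genes that were lower in macrophages (Ccr1) and higher there (Ccr3, Cxcr3), and a match is a description of the sequence, not of binding.

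Ccr3, the eotaxin receptor of eosinophils and basophils, measured 2.77 in Spic-negative cells, 3.54 in Spic-positive cells and 9.28 in red pulp macrophages on its single probe set. Both monocyte arrays were below the floor, so their order carries no meaning. The measured difference of macrophages from Spic-negative cells was 6.51, and 30 of 12375 genes lay as high, but its size depends on background. With the monocyte levels raised to the floor it was 4.26 (19.1-fold) in both macrophage comparisons. Of 8 other markers of eosinophils, basophils and mast cells, none was above the floor in Spic-negative cells, 1 (Kit) in Spic-positive cells and 3 in macrophages, with a summed linear level of 104, 193 and 914. In macrophages these were Prg2 at 8.89, which encodes the major basic protein of eosinophil granules, Mcpt8 at 8.01, a protease of basophils, and Kit at 6.40. Siglecf, Epx, Il5ra, Fcer1a and Cpa3, which include defining markers of all these cells, were below the floor in macrophages, at 4.90, 3.53, 4.17, 3.60 and 4.62. The part of such cells in the Ccr3 value was not tested.

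Cxcr3, the receptor for the interferon-induced chemokines CXCL9, CXCL10 and CXCL11 and known for its role on T and NK cells, measured 6.18 in Spic-negative cells, 6.19 in Spic-positive cells and 8.69 in macrophages. The monocyte arrays were level and macrophages were 5.69-fold and 5.65-fold higher. Such a difference was not rare on these arrays: 595 of 12375 genes (4.81%) were as much higher in macrophages than in Spic-negative cells. NK cell markers had their highest level on the same array, in 7 of 7 members, where the share of all genes was 45.5%. Their summed linear level was 184, 222 and 1974, and 5 of the 7 were at least 2-fold higher in macrophages than in either monocyte population, among them the granzyme gene Gzma, at 4.31, 4.004 and 9.24, and the transcription factor gene Eomes, at 3.93, 4.20 and 8.10. Among the 8 T cell markers that passed the floor, 6 were higher by 2-fold or more in macrophages than in Spic-negative cells, such as Cd3g at 3.48, 4.20 and 6.99, while Cd3e was 6.63, 6.57 and 6.16. With the floor at the 75th percentile, which leaves fewer genes, the count was 2. The summed linear level of all 10 T cell markers with a value was 398, 466 and 1086. The defining NK receptor gene Ncr1 measured 4.73, 4.75 and 5.73. The part of lymphocytes in the Cxcr3 value was not tested.

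Ccr7 had its highest level in Spic-positive cells. It measured 5.85 in Spic-negative cells, 9.90 in Spic-positive cells and 7.90 in red pulp macrophages on 1 probe set. All 3 arrays were above the floor and the levels were far apart, with neighbours differing by about 4-fold. Spic-positive cells were 16.6-fold above Spic-negative cells, and 8 of 12375 genes (0.06%) had a difference that high. Macrophages were 4.14-fold above Spic-negative cells and 4.02-fold below Spic-positive cells.

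B cells and mature dendritic cells also express Ccr7. Of 12 B cell markers, 10 were 2-fold or more above Spic-negative cells in Spic-positive cells, and 9 were highest on the Spic-positive array. Ms4a1 (CD20) measured 7.14, 9.53 and 7.72 and the complement receptor gene Cr2 5.60, 8.08 and 5.56. The remaining 3 of the 12 were highest in macrophages: Bank1 (6.75, 7.51 and 11.09), Pou2af1 (5.35, 7.19 and 10.23) and Cd79b (7.16, 8.88 and 9.82). The count of 10 was 8 with the mean of each gene's probe sets. It was 7 with the floor at the 75th percentile, which leaves fewer genes. The median difference of the list was 1.78 between the monocytes, where that of Ccr7 was 4.05, and no B cell marker exceeded 2.48. The summed linear level of the list was 770.5 in Spic-negative cells, 3021 in Spic-positive cells and 5283 in macrophages. Pax5, a defining B cell factor, measured 4.69, 5.29 and 5.05, near the floor on all arrays. Of 10 dendritic cell markers above the floor other than Ccr7, 1 was at least 2-fold higher in Spic-positive cells. It was the transcription factor gene Zbtb46, at 4.11, 5.35 and 6.60, with its Spic-negative level below the floor. The other probe sets of Zbtb46 differed by 0.35, -0.04 and -0.19 between the monocytes. The count of 1 also depends on another gene: Fscn1 (fascin), a marker of mature dendritic cells, has 4 probe sets that disagree. The brightest measured 7.32, 7.97 and 6.96, while another measured 3.63, 9.51 and 7.37, which is 5.88 higher in Spic-positive cells than in Spic-negative cells, and its macrophage difference from Spic-positive cells is -2.14. The latter has the order of Ccr7 and a larger difference between the monocytes, though its Spic-negative level is below the floor. With the mean of each gene's probe sets, the marker past 2-fold was Fscn1, at 1.96, in place of Zbtb46, and with the floor at the 75th percentile none was. Ccl22, another marker of mature dendritic cells, was 4.75, 5.24 and 5.85, and the progenitor receptor gene Flt3 was 8.60, 8.05 and 7.37. Xcr1 was below the floor on all 3 arrays. The summed linear level of the 11 dendritic cell markers with a value was 10415, 11542 and 15577. The part of either cell type in the Ccr7 value was not tested.

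**Figure D2:**
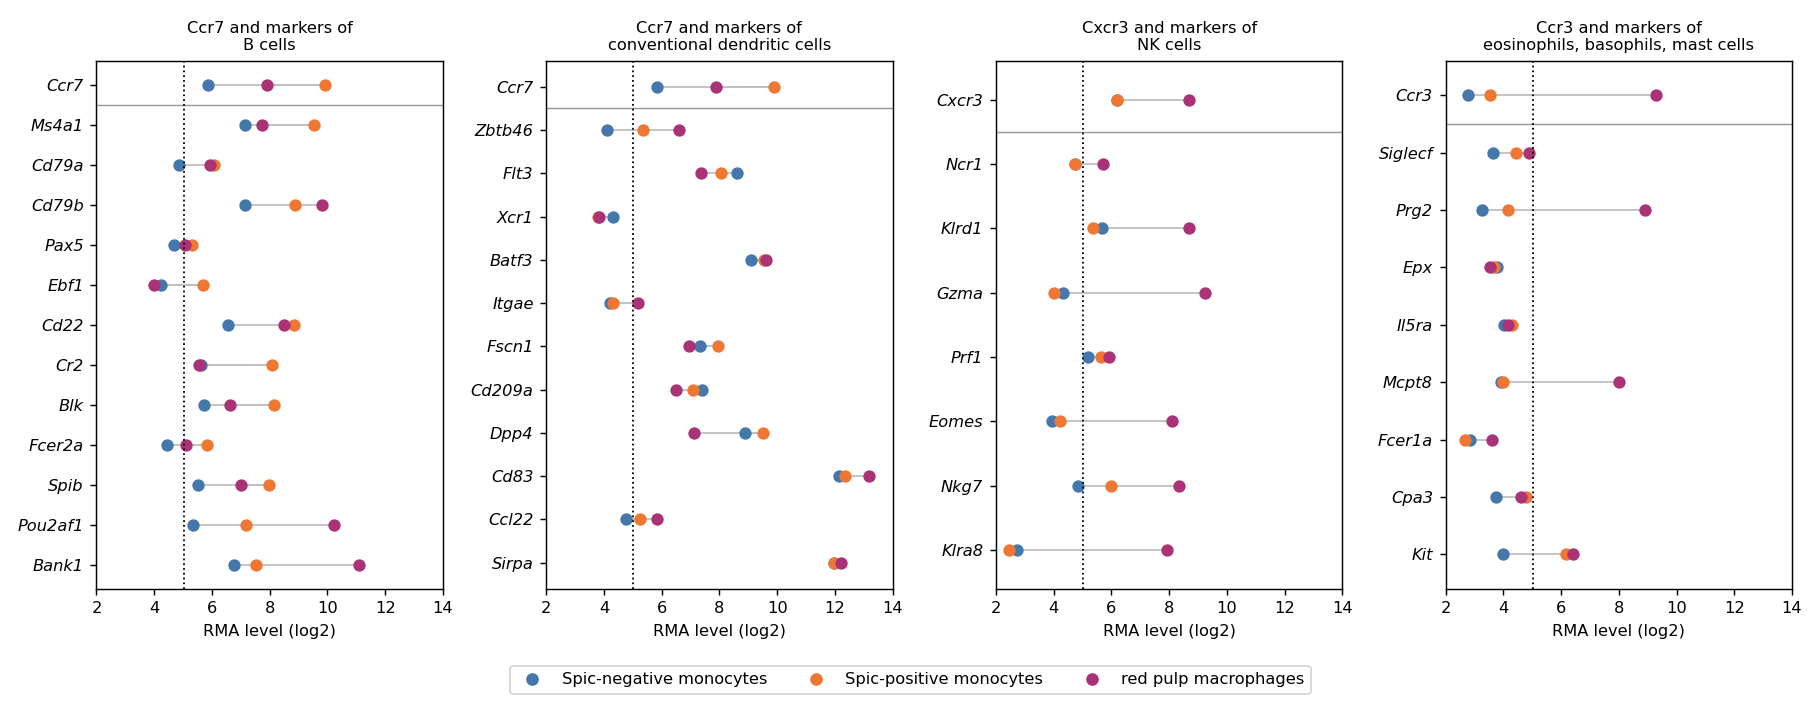
RMA levels (log2, horizontal axis) of Ccr7, Cxcr3 and Ccr3, at the top of each panel, above markers of cell types that also express them, with 1 point per array in the colour of its population, from each gene's brightest probe set; the dotted line is the floor at 5.02. Ccr7 at 9.90 in Spic-positive cells is, like Ms4a1 and Cr2, highest there. Cxcr3 and Ccr3 are highest in macrophages, as are Gzma, Prg2 and the B cell markers Bank1, Pou2af1 and Cd79b.

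Ccrl2, which binds the chemoattractant chemerin, measured 11.10 in Spic-negative cells, 11.60 in Spic-positive cells and 11.58 in macrophages. The 3 levels lay within a span of 0.50, and the macrophage and Spic-positive arrays differed by 0.02. It was the only one of the 8 whose arrays differed by less than 4-fold over their whole span.

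**Figure D3:**
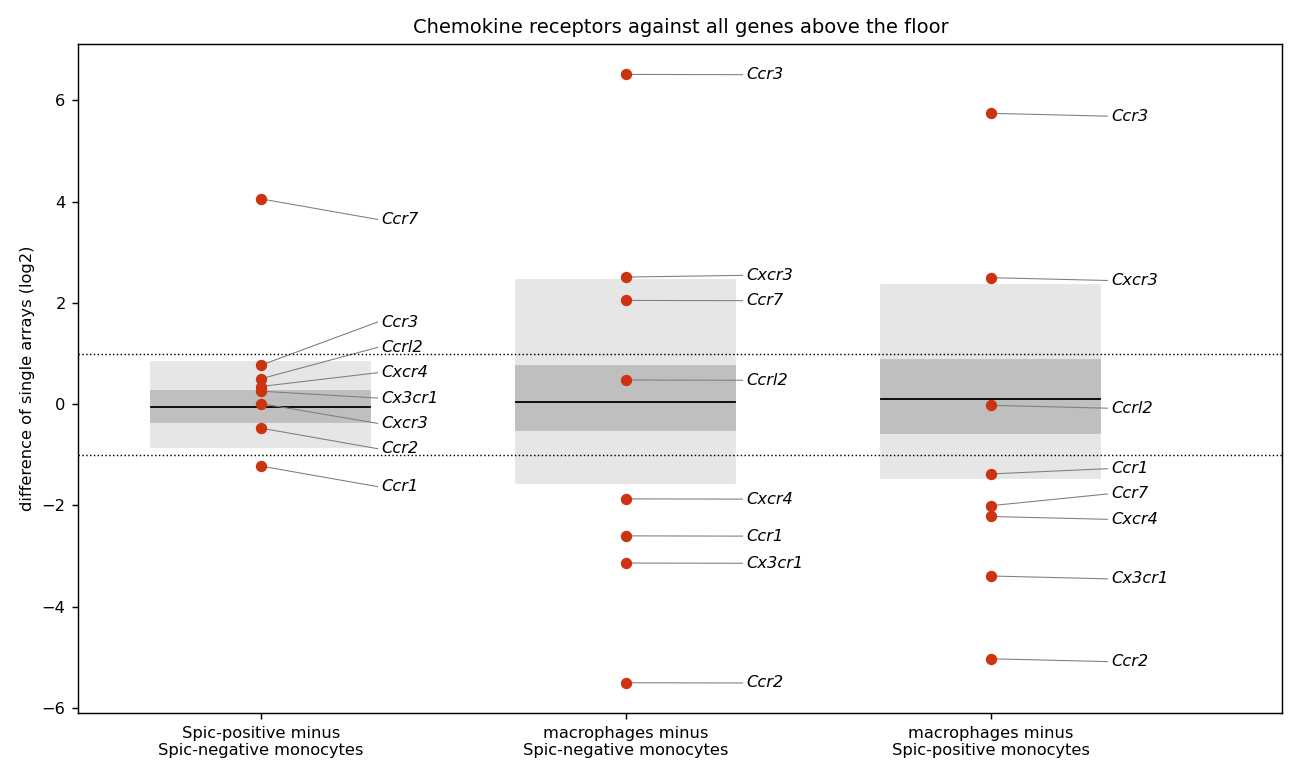
Differences of single arrays (log2, vertical axis) for the 3 comparisons (horizontal axis), with the receptors as red points over all 12375 genes above the floor; the black line is the median of all genes, the dark band runs from their 25th to their 75th percentile and the light band from the 5th to the 95th, and dotted lines mark 2-fold. Ccr7 and Ccr1 lie outside the light band between the monocytes, and Ccr2 at -5.50 and Ccr3 at 6.51 are the extremes of the 8 for macrophages.

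Genes whose differences lay closest to those of each receptor were sought among 12367 other genes, with likeness measured as the larger deviation of the 2 differences from Spic-negative cells. This uses 3 arrays, so many genes can match. Ccr2 was closest to F13a1, the coagulation factor XIII A gene (0.24), and Tiam1, a Rac activator gene (0.29), and 3 genes lay within 0.50 of it. Ccr1 was closest to the sphingomyelin synthase gene Sgms2 (0.09) and to Tnfaip6 (0.10), with 55 genes within 0.50. Cx3cr1 was closest to Zfp800 (0.12) and the heparanase gene Hpse (0.13), with 26 genes within that distance. Cxcr4 was closest to the kinase gene Eif2ak2 (0.03) and Rbm25 (0.05), with 198 genes. Cxcr3 was closest to Osbpl1a (0.02) and the ribonucleotide reductase gene Rrm1 (0.03), with 291. Ccr3 was closest to the prion protein gene Prnp (0.10) and Samd4 (0.18), with 15, but this uses its monocyte levels below the floor. With all levels raised to the floor, the closest were F2r and Prg4, with 51 genes within 0.50, so the matches of Ccr3 depend on background. Ccr7 had no gene within 0.50. Its closest were the kinase gene Nuak1 (0.87), at 4.60, 7.90 and 7.52, and Cd274 (PD-L1), at 7.09, 10.26 and 9.62 (0.89), both of which stayed higher in macrophages than Ccr7 did relative to Spic-positive cells. Levels raised to the floor also brought other genes among the closest. These were Gdpd3 for Ccr2, C5ar1 for Ccr1, BC018473 for Cx3cr1, Cavin2 for Cxcr3 and Cxcl9 for Ccr7. The closest genes of Cxcr4 stayed the same, and Ccr7 still had no gene within 0.50. Tnfaip6 and Nuak1 had levels below the floor. Common patterns such as that of Cxcr3 thus had many matches, and those of Ccr2 and Ccr7 few or none.

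Ligands of these receptors were measured in the same cells. Among 16 ligand genes that passed the floor, 7 were higher by 2-fold or more in Spic-positive cells, relative to Spic-negative cells, and none was lower by as much, with a median of 0.88 against -0.06 for all genes, and 12 of the 16 had their highest level there. Relative to Spic-positive cells, 10 were at least 2-fold lower in macrophages, where the share of all genes was 11.6%. Another 2 were higher (1 after cyclic loess), where that share was 22%. The list overlaps the chemokines already known to be high in Spic-positive cells and is no independent evidence of direction.

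The ligands of CXCR3 were highest in Spic-positive cells, where Cxcr3 itself was level with Spic-negative cells. Cxcl9 measured 8.80, 11.96 and 10.40 over Spic-negative cells, Spic-positive cells and macrophages, Cxcl10 9.15, 11.15 and 9.51, and Cxcl11 5.80, 8.75 and 5.74. Ccl5, a ligand of CCR1 and CCR3, was 6.87, 11.87 and 9.22. Of the other CCR1 ligands, Ccl3 had its highest level in Spic-positive cells (10.25, 11.48 and 9.93), while Ccl6 (12.93, 12.34 and 10.74) and Ccl9 (12.67, 12.20 and 9.68) ran from high in Spic-negative cells to low in macrophages, the order seen for Ccr1.

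Ccl2, the main ligand of CCR2, was 10.22, 10.83 and 7.94, so ligand and receptor were both at least 2-fold lower in macrophages than in either monocyte population. Cxcl12 was highest in macrophages, where its receptor Cxcr4 was lowest. On the brightest of its 3 probe sets it was 4.23, 5.03 and 7.74, above the floor by a clear margin in macrophages alone. The other probe sets of Cxcl12 were 3.74, 4.43 and 5.84, and 3.79, 4.28 and 3.88, so 1 of the 3 did not show it. The eosinophil attractant gene Ccl24 was 6.81, 7.16 and 8.21, highest in macrophages as Ccr3 was, and the other eotaxin gene, Ccl11, was below the floor on all arrays. Cx3cl1 (6.29, 6.58 and 5.48) and the chemerin gene Rarres2 (6.40, 6.55 and 6.23) lay within 2-fold of Spic-negative cells on the other arrays. The ligands of CCR7 were not analysed here.

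**Figure D4:**
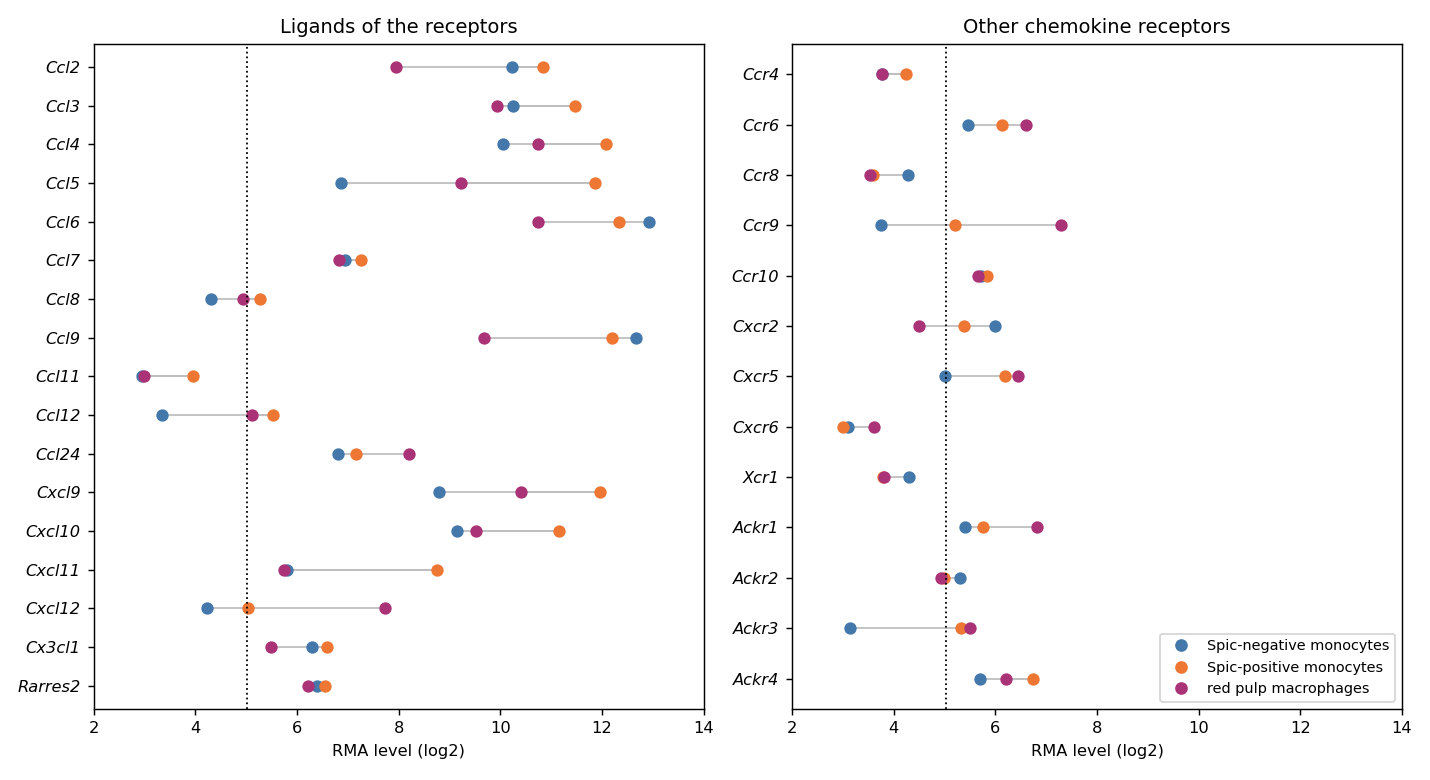
RMA levels (log2, horizontal axis) of ligands of the receptors (left) and of other chemokine receptors (right), with 1 point per array in the colour of its population and the floor at 5.02 as a dotted line. Ccl5, Cxcl9 and Cxcl11 are highest in Spic-positive cells, Cxcl12 and Ccr9 in macrophages, and the other receptors all lie below 7.29.

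Other chemokine receptors were low throughout. Of 13 with a value, 9 were above the floor on some array. Among these, 4 were 2-fold or more above Spic-negative cells in Spic-positive cells, namely Ccr9 (3.75, 5.22 and 7.29), the B cell receptor gene Cxcr5 (just under the floor, then 6.20 and 6.44) and the atypical receptor genes Ackr3 (3.13, 5.32 and 5.51) and Ackr4 (5.70, 6.74 and 6.20). Each of the first 3 was below the floor in Spic-negative cells. The macrophage level of Ccr9 rests on a probe set that can bind several transcripts, and its 4 other probe sets lay between 3.29 and 5.22 in macrophages. The other probe sets of Ackr4 differed by less than 2-fold. The count was 2 in place of 4 with the mean of each gene's probe sets and 1 with the floor at the 75th percentile. The neutrophil receptor gene Cxcr2, at 5.996, 5.38 and 4.50, was the only one at least 2-fold lower in macrophages than in Spic-negative cells, where 5 were higher. With the higher floor these counts were 0 and 1. Ccr4, Ccr8, Cxcr6 and Xcr1 were below the floor on all arrays.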

How the data were processed

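The authors deposited log2 expression per probe set from RMA, per the submitters' processing notes; RMA corrects background, applies quantile normalization and summarises the probes of a set. Its version is not stated in the labels, and the log2 scale was taken from the values, which ran from 1.82 to 14.50. Per the labels' protocols, target preparation used 2 cycles of amplification, which favours 3′ ends. Quantile normalization hides differences in total RNA per cell.

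Of 45101 probe sets, 64 controls were left out. Of the rest, 34945 had 1 gene symbol, 932 several and 9160 none, and only the first were used. Current symbols, found by gene identifier, were used for 34741. Promoters and gene order came from RefSeq tables (GRCm38.p6). With 1 array per group, no test was run and the number of arrays limits the precision. The members, lists and named genes were chosen with earlier results of these data known. The named genes are the 8 receptors, the 2 genes of closest pattern for each receptor whose arrays differ at least 2-fold, and members of the lists. Marker lists are described without receptors of interest among them. Python 3.11.15 with pandas 2.3.3, and R 4.3.3 with limma 3.58.1, were used, and the counting was tested on simulated data. The alternatives tried were a gene's mean or median over its probe sets, 3 other scalings (median centring, a further quantile normalization, cyclic loess), a floor at the 75th percentile (log2 7.26) or none, leaving out _x_at and _s_at probe sets, and 4-fold.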

Additional observations from a re-analysis of the deposited data

How the results depend on the processing

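The 24 differences of the 8 receptors were recomputed under 8 alternatives, and all 192 values kept their side of 2-fold. Many of these values could not have changed. Neither the other floors nor leaving out _x_at and _s_at probe sets could alter a receptor difference. The mean and median could alter only those of Ccr1, Ccr2 and Cx3cr1, which have several probe sets. The other scalings were thus the only alternatives that could alter all 8. The sign changed in 2 of the 24, both under 0.03 in size. Ccr7 with Spic ranged from 3.98 to 4.23, Ccr1 with Spic from -1.71 to -1.04, Ccr2 in macrophages against Spic-negative cells from -5.60 to -4.49 and Ccr3 there from 6.39 to 6.66. At 4-fold, 0 receptors were lower in Spic-positive cells, against 1 at 2-fold. Centring the arrays on their medians moved the median of all genes from 0.10 to 0.23 for macrophages against Spic-positive cells. Of all genes past 2-fold between the monocytes, 53.3% were higher in Spic-positive cells, and 42.4% after centring. For the other lists, added after seeing the data, 41 of 462 recomputed counts moved by over 1.5 times, 13 of them with the higher floor. Levels raised to the floor, also added later, moved the number of genes within 0.50 of Ccr2 from 3 to 5 and of Ccr3 from 15 to 51. Cnih4 was left out of the genes that switch receptor signals off after its values were seen, since it helps to export receptors; it had been 1 of 5 lower genes among 12. No paired analysis was possible because each group had 1 array. The single array per population is the main limit, and levels near the floor have only a rough size.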

Other observations

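Receptors for other attractants differed in both directions. Of 12 above the floor, 1 was 2-fold or more above Spic-negative cells in Spic-positive cells, the sphingosine 1-phosphate receptor gene S1pr1, which guides lymphocyte exit and measured 4.96, 6.44 and 3.83 over Spic-negative cells, Spic-positive cells and macrophages. The Spic-negative and macrophage levels of S1pr1 were below the floor. The anaphylatoxin receptor gene C5ar1 (7.70, 6.54 and 4.48) was at least 2-fold lower in Spic-positive cells and lower again in macrophages, where it was below the floor. Its other probe set, at 4.68, 4.98 and 4.67, was below the floor on all arrays. Against Spic-negative cells, 4 were lower in macrophages, among them the leukotriene receptor gene Ltb4r1 (9.94, 9.18 and 8.27) and the oxysterol receptor gene Gpr183 (9.07, 9.65 and 7.41), and 1 was higher, C3ar1 (5.25, 5.04 and 6.50). The 4 lower ones include S1pr1, which was below the floor on both arrays of this comparison, so its place among them rests on background. The formyl peptide receptor gene Fpr2 lay within 2-fold on all arrays (10.84, 11.70 and 11.26). With the higher floor, which leaves fewer genes, 0 of these receptors were higher in either comparison, and with the mean of each gene's probe sets 0 were lower in Spic-positive cells. Cmklr1, the signalling receptor for chemerin, was 7.62, 8.60 and 7.38.

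Of 21 genes for the signal below chemokine receptors, none differed by 2-fold between the monocytes (1 was lower with the median of each gene's probe sets), and 7 were at least 2-fold lower in macrophages than in Spic-negative cells with none higher. They included the inhibitory G protein gene Gnai2 (12.04, 12.06 and 10.58) and genes of the PI3 kinase that G proteins switch on, Pik3cg (9.48, 10.07 and 8.35), Pik3r5 (9.82, 9.93 and 8.42) and Pik3r6 (10.75, 10.63 and 7.76). The list had a median of -0.63, against 0.03 for all genes. Among 11 genes that switch receptor signals off, Rgs1, a brake on G protein signals, was 9.52, 12.06 and 12.996, the only one at least 2-fold higher in Spic-positive cells. Rgs18 (9.19, 8.03 and 6.28), Rgs14 (10.02, 9.96 and 7.96) and the receptor kinase gene Grk5 (10.27, 9.94 and 7.51) were, with Grk3, the 4 that were at least 2-fold lower in macrophages than in Spic-negative cells, a count of 3 with the median of each gene's probe sets.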
